A study of Rattus norvegicus with 45 samples.

Results

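Syt2, Cplx1 and Syn1, a set of 3 of the 32883 genes in the deposited table, encode proteins of the presynaptic vesicle and were followed across the ventral tegmental area (VTA) of 44 rats in 6 groups. They were chosen by name, with earlier results of these data known. Syt2 was found through the names in the study's gene table (ENSRNOG00000004756, chromosome 13 of rn6 from 51534024 to 51578052), as were Cplx1 (ENSRNOG00000000060, chromosome 14 from 2194932 to 2226598) and Syn1 (ENSRNOG00000010365, chromosome X from 1321314 to 1379198). All are protein-coding genes on the plus strand, and the values count whole genes with no split by exon.

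Transmitter release begins when calcium enters a nerve terminal through channels beside docked vesicles. Synaptotagmins on the vesicle bind that calcium, complexins hold and then assist the SNARE complex that joins vesicle and plasma membrane, and synapsins tether the reserve vesicles behind the active zone. Syt2 encodes synaptotagmin 2, a fast calcium sensor known from hindbrain, motor and fast-firing inhibitory terminals, Cplx1 encodes complexin 1, a main complexin of fast synapses, and Syn1 encodes synapsin 1, which is found at most nerve terminals.

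Male wild-type Sprague-Dawley rats self-administered saline or heroin for 10 d, received a vector into the VTA on day 11 and spent 30 d in abstinence. The vectors were an empty control that the labels call GFP, H3.3 WT, which expresses the histone variant H3.3, and H3.3Q5A, in which the glutamine that accepts dopamine on H3.3 is replaced by alanine. Groups were saline empty (n = 7), saline H3.3 WT (n = 7), saline H3.3Q5A (n = 7), heroin empty (n = 8), heroin H3.3 WT (n = 7) and heroin H3.3Q5A (n = 8), with 1 library for each rat. Every rat thus had catheter and brain surgery, a vector and abstinence, the age of the rats was not given in the sources used here, and neither was the promoter that drives H3.3. The vector is named as lentiviral in the series' design text and as AAV in the study's methods. Punches of 2 mm were taken where the vector's fluorescence was seen and hold infected and uninfected cells, so fewer cells of a type and less RNA per cell cannot be told apart.

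Reads on genes ranged from 24308953 to 71104049 for each rat, with a median of 42574786. Each member had between 1270 and 58636 reads in every library, so all passed the filter on low values, and counting error was small beside the spread between rats. Deposited values are on a log2-like scale in which a difference of 1 is close to a doubling for genes of this depth, and CPM, the share of a library's reads on genes on a scale common to all libraries, is given beside them. None of the 9 dopamine, 3 GABA or 2 glutamate neuron markers on the lists could be matched to a name, so the labelled tissue was not checked against them. When each library was centred on its median, the median difference of all genes moved by -0.121 in the drug-by-vector interaction of H3.3Q5A with empty and by -0.12 in that with H3.3 WT. With this centring the DEx genes of the first became 815 up and 3866 down, against 1563 up and 1586 down, and those of the second 767 up and 2890 down, against 1071 and 719. The splits became 1072 up and 182 down, against 728 and 388, for H3.3Q5A vs. empty in saline rats, and 384 up and 838 down, against 456 and 155, for H3.3Q5A vs. H3.3 WT in heroin rats. Against empty in heroin rats H3.3Q5A had 470 up and 1729 down, against 545 and 179. The heroin difference had 651 up and 129 down in empty rats, against 13 and 22, 303 up and 394 down in H3.3 WT rats, against 68 and 552, and 115 up and 862 down in H3.3Q5A rats, against 43 and 71. The differences called below for Syt2 and Cplx1 were larger in size than the shift of the median, and no difference of Syt2 or Cplx1 changed sign with this centring. That of Syn1 between saline H3.3Q5A and saline H3.3 WT rats went from -0.0022 to 0.056.

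The bases before the start of Cplx1 and Syn1 are shown because both act in the terminal and Cplx1 was called in comparisons where Syn1 was not. No test compared the responses of these genes with each other. Each is the 250 bases upstream of the start in RefSeq (GRCr8, plus strand), at chr14:1328823-1329072 and chrX:3725495-3725744, read from 5′ to 3′. Capitals mark GC boxes (GGGCGG on either strand), the cAMP response element (CRE, TGACGTCA) and its shorter core (TGACG on either strand).
Cplx1: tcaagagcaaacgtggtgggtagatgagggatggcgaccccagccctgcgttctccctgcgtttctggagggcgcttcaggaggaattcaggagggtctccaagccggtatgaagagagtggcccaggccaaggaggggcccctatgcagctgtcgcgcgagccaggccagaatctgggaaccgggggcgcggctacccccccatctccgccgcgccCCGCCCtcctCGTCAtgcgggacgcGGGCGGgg
Syn1: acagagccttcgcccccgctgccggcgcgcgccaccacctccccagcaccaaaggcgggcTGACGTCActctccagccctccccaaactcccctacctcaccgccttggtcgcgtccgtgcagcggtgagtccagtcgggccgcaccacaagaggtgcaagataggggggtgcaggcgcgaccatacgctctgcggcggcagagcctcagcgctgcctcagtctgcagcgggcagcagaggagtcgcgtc
The Cplx1 window held 68.0% G and C and 21 CpG, and the Syn1 window 69.6% and 24, against medians of 51.2% and 5 over 33469 RefSeq promoter windows of this length. Cplx1 had GC boxes at -33 on the minus strand and -8 on the plus strand, and the CRE core at -23 on the minus strand. Syn1 had the whole CRE at -190, whose core was read on both strands, and no GC box. A GC box was present in 30.5% of all windows, the CRE core in 18.2% and the whole CRE in 1.59%. A TATA box (TATAAA, either strand), present in 12.9% of windows, was found in neither. The window listed for Syt2 lies within the gene's span and was not printed. These matches describe letters and were not measured as binding.

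Syt2 had its lowest mean in saline empty rats. In saline empty rats it ranged from 10.92 to 12.47 with a median of 11.51, in saline H3.3 WT rats from 10.78 to 12.82 with a median of 12.14, and in saline H3.3Q5A rats from 12.45 to 13.20 with a median of 12.71. The saline H3.3Q5A rats were the tightest of the Syt2 groups, and 6 of 7 lay above every saline empty rat. In heroin empty rats the value ranged from 11.39 to 13.37 (median 12.63), in heroin H3.3 WT rats from 12.21 to 13.71 (median 12.50) and in heroin H3.3Q5A rats from 10.91 to 13.09 (median 11.62). The groups overlapped in every pair compared, and within the heroin H3.3Q5A group 1 rat, number 21 at 13.09, stood above the others.

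Cplx1 had the same order of groups. Its value ranged from 13.52 to 14.95 in saline empty rats (median 13.75), from 13.85 to 15.10 in saline H3.3 WT rats (median 14.63) and from 14.59 to 15.41 in saline H3.3Q5A rats (median 14.95). In heroin empty rats it lay between 13.58 and 15.54 (median 14.84), in heroin H3.3 WT rats between 14.41 and 15.59 (median 14.80) and in heroin H3.3Q5A rats between 13.45 and 15.13 (median 14.18). Among saline empty rats, rat 18 at 14.95 was the one that reached the range of saline H3.3Q5A rats.

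Syn1 moved far less. Its group means lay between 14.14 ± 0.141 (SD, n = 7) in saline empty rats and 14.41 ± 0.242 (SD, n = 7) in those given heroin and H3.3 WT, and its lowest and highest values over all rats were 13.95 and 14.82. Over all 44 rats Syt2 spanned 2.94 units, Cplx1 2.13 and Syn1 0.869. In CPM the spans were 40.8 to 307 for Syt2, 286 to 1131 for Cplx1 and 398 to 679 for Syn1. No level is set between the genes, since no transcript lengths of the build were given.

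**Figure D1:**
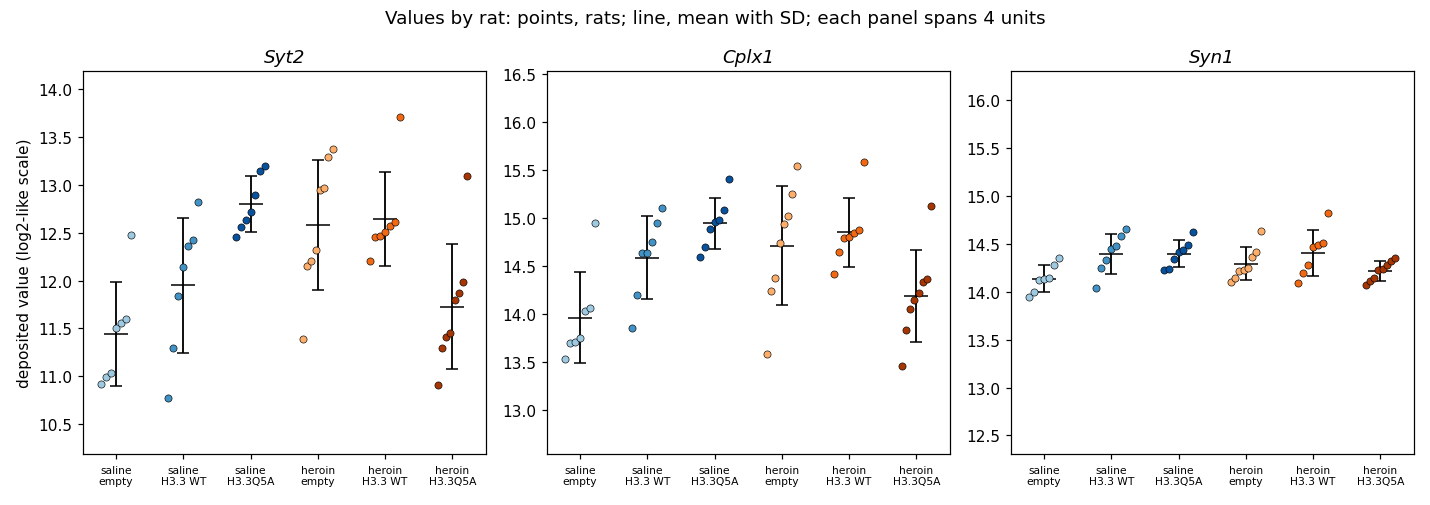
Deposited value of Syt2, Cplx1 and Syn1 (log2-like scale, 4 units in each panel) for every rat in the 6 groups, with the mean and SD as lines. Syt2 and Cplx1 spread over 2.94 and 2.13 units with saline empty and heroin H3.3Q5A lowest, while Syn1 stays within 0.869.

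Ordered by mean, Syt2 ran from saline empty (11.44) through heroin H3.3Q5A (11.73), saline H3.3 WT (11.95), heroin empty (12.58) and heroin H3.3 WT (12.64) to saline H3.3Q5A (12.80). The steps between neighbours were 0.284, 0.225, 0.63, 0.064 and 0.155, each smaller than the pooled SD of the groups beside it. For Cplx1 the ends of the same order were 13.96 and 14.94, and for Syn1 saline empty and heroin H3.3Q5A were again the lowest. No neighbours in the order of any of these genes differed beyond their spread. The SD within groups was 0.582 for Syt2 and 0.46 for Cplx1, against a median of 0.143 over all genes tested. These are at percentiles 98.8 and 97.6 of all genes, and at 99.8 and 99.2 of the 500 genes nearest to each in level. The SD of Syn1, at 0.173, was at percentile 69.2.

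The first question was what heroin followed by abstinence did in rats without an H3.3 vector. Syt2 averaged 158 CPM in heroin empty and 71.2 in saline empty rats, and 7 of 8 heroin rats lay above the saline mean. The log2 fold change was 1.14 (95% interval 0.56 to 1.72), which missed the threshold for DEx genes (limma, Benjamini-Hochberg adjusted p = 0.053). Cplx1 averaged 691 and 414 CPM, a difference of 0.75 (0.29 to 1.21, limma adjusted p = 0.0802). Syn1 differed by 0.16 (-0.02 to 0.33, limma adjusted p = 0.344). None of the 3 was called, against 0.155% of the 22570 genes tested. Without saline empty rat 18 the adjusted p became 0.0122 for Syt2 and 0.0158 for Cplx1 by the same limma test, and without saline empty rat 15 they were 0.165 and 0.19.

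In rats given H3.3 WT the heroin difference was 0.69 for Syt2 (0.095 to 1.29, limma adjusted p = 0.232), 0.26 for Cplx1 (-0.21 to 0.74, adjusted p = 0.623) and 0.0086 for Syn1 (-0.17 to 0.19, adjusted p = 0.979). None passed, against 2.75% of genes tested. In rats given H3.3Q5A the heroin difference had the opposite sign. Syt2 was lower in heroin than in saline rats by 1.07 units (-1.65 to -0.49, limma adjusted p = 0.0533), with means of 89.9 and 172 CPM, and 7 of 8 heroin rats were below every saline rat. Cplx1 differed by -0.75 (-1.21 to -0.29, adjusted p = 0.0685) and Syn1 by -0.18 (-0.35 to -0.00037, adjusted p = 0.251). None was called, against 0.505% of genes. Leaving out heroin H3.3Q5A rat 21 gave limma adjusted p values of 0.00901 for Syt2 and 0.0155 for Cplx1. Leaving out rat 25 of the same group gave 0.154 and 0.185 by the same test.

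That the heroin difference depended on the vector was tested directly. The interaction, which is the heroin difference in H3.3Q5A rats minus that in empty rats, was -2.21 for Syt2 (-3.03 to -1.39, limma adjusted p = 0.00122) and -1.51 for Cplx1 (-2.16 to -0.86, adjusted p = 0.00239). Both passed the test, as did 14% of all genes tested. Syn1 had an interaction of -0.33 (-0.58 to -0.084), which did not pass (limma adjusted p = 0.0621). Against H3.3 WT the interactions were -1.77 for Syt2 (-2.60 to -0.93, limma adjusted p = 0.00503), -1.02 for Cplx1 (-1.68 to -0.36, adjusted p = 0.0446) and -0.19 for Syn1 (-0.44 to 0.068, adjusted p = 0.433). Syt2 and Cplx1 passed, beside 7.93% of genes and 3.19% downward. The Cplx1 call was lost without heroin H3.3 WT rat 11 (limma adjusted p = 0.0991) and in 16 other of the 44 single-rat omissions. The like interaction for H3.3 WT and empty was -0.44 for Syt2, -0.49 for Cplx1 and -0.15 for Syn1, each with a limma adjusted p of 0.908. No gene of the table was called in it by limma (0.0%), with 1137 genes at an unadjusted p under 0.05, or by voom on the recovered reads, with 1106, whereas 22 were called with 1 residual factor as covariate and 356 with 3.

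**Figure D2:**
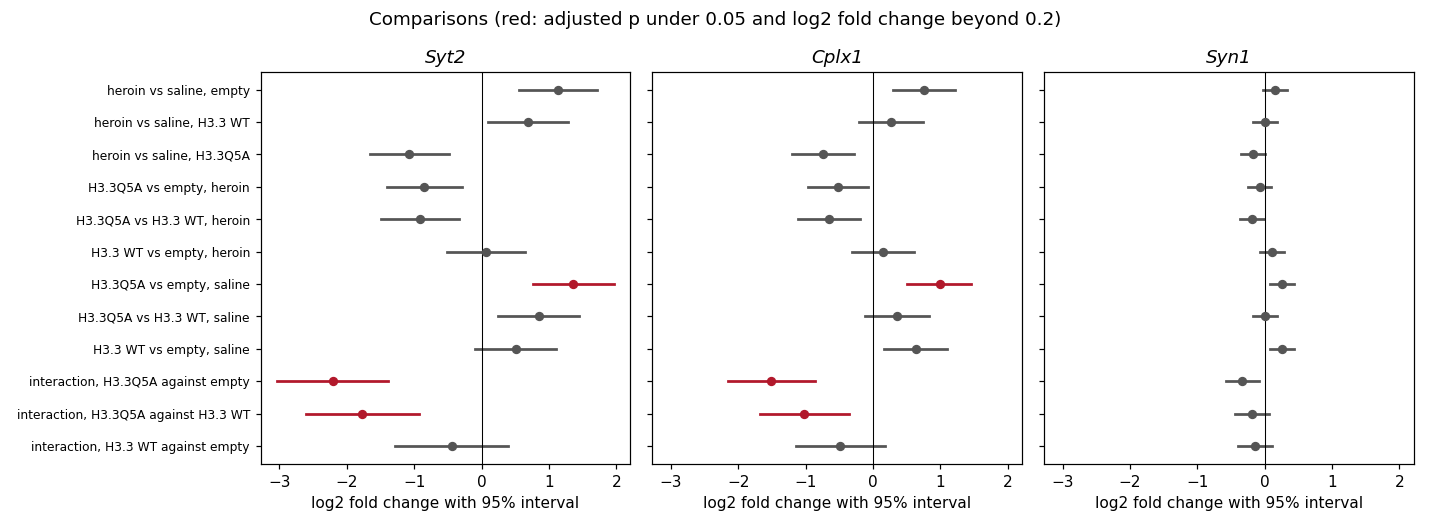
Log2 fold change of Syt2, Cplx1 and Syn1 with its 95% interval in 12 comparisons, red where the gene was a DEx gene. Syt2 and Cplx1 are red for H3.3Q5A vs. empty in saline rats and for both drug-by-vector interactions of H3.3Q5A, the furthest being -2.21 for Syt2, and Syn1 is red in none.

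Among saline rats, Syt2 and Cplx1 rose with H3.3Q5A against the empty vector. Syt2 was 1.36 higher (0.76 to 1.96, limma adjusted p = 0.0126), a ratio of 2.41 in CPM, with 7 of 7 H3.3Q5A rats above the control mean. Cplx1 was 0.99 higher (0.51 to 1.46, limma adjusted p = 0.0184), a ratio of 1.84, also with 7 of 7 above. Syn1 differed by 0.26 (0.075 to 0.44, adjusted p = 0.0746), a ratio of 1.15, and did not pass. Thus 2 of 3 members were called, against 4.94% of all genes and 3.23% upward. The Cplx1 call was lost without saline empty rat 22 or saline H3.3Q5A rat 28 (limma adjusted p up to 0.0542).

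The other saline comparisons were smaller and none of the 3 genes passed. H3.3 WT differed from empty by 0.51 for Syt2 (-0.09 to 1.11, limma adjusted p = 0.375), 0.63 for Cplx1 (0.16 to 1.10, adjusted p = 0.201) and 0.26 for Syn1 (0.078 to 0.44, adjusted p = 0.193). No gene of the table passed in that comparison (0.0%), by limma with 3788 genes at an unadjusted p under 0.05 or by voom with 4084, whereas limma with 1 residual factor as covariate called 197 up and 123 down and with 3 factors 1382 and 545. H3.3Q5A differed from H3.3 WT by 0.85 for Syt2 (0.25 to 1.45, limma adjusted p = 0.194), 0.36 for Cplx1 (-0.12 to 0.83, adjusted p = 0.593) and -0.0022 for Syn1 (-0.18 to 0.18, adjusted p = 0.998), where 0.00886% of genes were called. The rise with H3.3Q5A was thus not shown against the vector that carries unaltered H3.3.

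Among heroin rats the H3.3Q5A group was lower than both controls for Syt2 and Cplx1, short of the threshold. Syt2 differed by -0.85 from heroin empty (-1.41 to -0.29, limma adjusted p = 0.0678) and by -0.92 from heroin H3.3 WT (-1.5 to -0.34, adjusted p = 0.0648), with ratios of 0.569 and 0.563 in CPM. Cplx1 differed by -0.52 (-0.97 to -0.078, adjusted p = 0.169) and -0.66 (-1.12 to -0.20, adjusted p = 0.0929). Syn1 differed by -0.076 (-0.25 to 0.095, adjusted p = 0.681) and -0.19 (-0.36 to -0.011, adjusted p = 0.25). DEx genes were 3.21% of those tested in the first comparison and 2.71% in the second, and none of the 3 was among them.
For Syt2, 7 of 8 heroin H3.3Q5A rats lay below every heroin H3.3 WT rat, and 2 of 8 below every heroin empty rat. Without heroin H3.3Q5A rat 21, the limma adjusted p of Syt2 was 0.011 against empty and 0.00966 against H3.3 WT, and that of Cplx1 against H3.3 WT was 0.0213. Without heroin H3.3Q5A rat 25, the limma adjusted p of Syt2 against empty was 0.185. Without heroin H3.3 WT rat 11, it was 0.216 for Syt2 and 0.269 for Cplx1 against H3.3 WT. H3.3 WT and empty rats of the heroin arm differed by 0.064 for Syt2 (-0.52 to 0.64), 0.14 for Cplx1 (-0.32 to 0.60) and 0.11 for Syn1 (-0.065 to 0.29), with limma adjusted p from 0.867 to 0.98. No gene of the table was called there by limma (0.0%), with 1277 genes at an unadjusted p under 0.05, or by voom, with 1028, and 3 residual factors gave 161 up and 34 down. The comparisons share control groups, so they are not independent views of the members.

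Syt2 and Cplx1 also varied together among rats of the same group. With group means removed, Pearson's r over 44 rats was 0.91 and Spearman's rho 0.88, each with a permutation p of 1e-05, the smallest that 100000 permutations can give (adjusted 3e-05 over 3 pairs). Within groups r lay between 0.63 in saline H3.3Q5A and 0.98 in heroin H3.3Q5A rats, and it was 0.89 without the 2 rats farthest from the Syt2 median. By rank the relation was weak in saline empty rats, where rho was 0.32 and r 0.84. In the other groups rho lay between 0.57 and 0.95. Syn1 did not follow Syt2 (r = 0.04, rho = 0.04, permutation p = 0.82 and 0.81) or, beyond its spread, Cplx1 (r = 0.22, rho = 0.24, permutation p = 0.15 and 0.11, adjusted 0.23 and 0.16). In heroin H3.3Q5A rats r of Syn1 was 0.76 with Syt2 and 0.77 with Cplx1, and in saline empty rats it was -0.50 and -0.05, values that were not tested apart. Without the 2 farthest rats r was -0.02 for Syt2 and Syn1 and 0.32 for Cplx1 and Syn1.

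**Figure D3:**
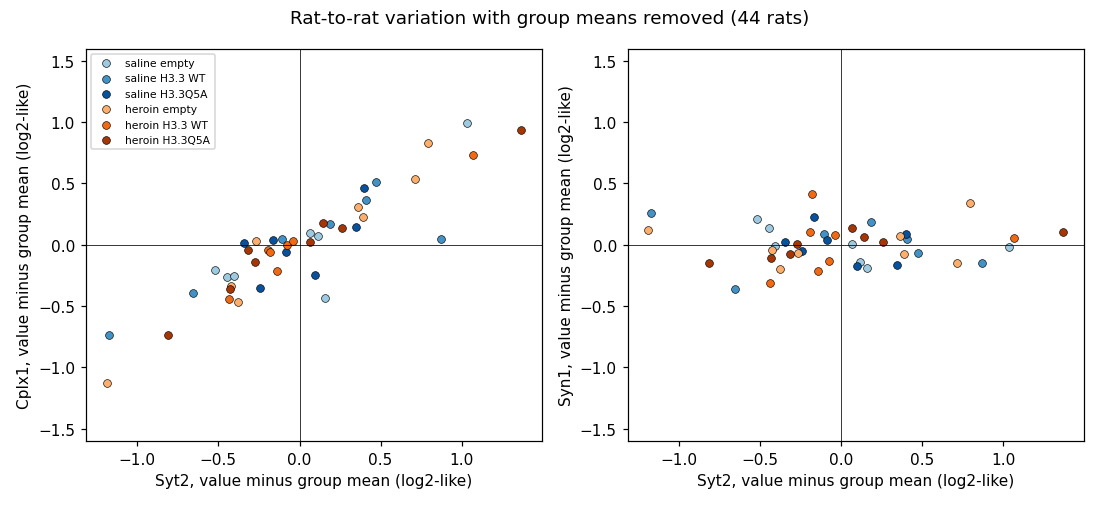
Cplx1 (left) and Syn1 (right) against Syt2 for 44 rats, each as the deposited value minus the mean of its group (log2-like units), coloured by group. Cplx1 rises with Syt2 (r = 0.91) and Syn1 shows no such relation (r = 0.04).

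The genes whose deviations from group means were most like each member were ranked over the 22569 others tested, across the 44 rats. For Syt2 they were headed by ENSRNOG00000019219 and ENSRNOG00000026679, each with r = 0.97, which could not be named. Among named genes Cplx1 came first for Syt2, at rank 12 of all, followed by Fgf11 and Dpy19l1 (r = 0.89), and Atp2b2, a plasma membrane calcium pump, had r = 0.86. Named genes most like Cplx1 were Sema7a, a semaphorin, and Rnf157 (r = 0.91), with Syt2 at rank 8 of all. The most opposed named genes were Gng2 and Minar2 for Syt2 (r = -0.81), and Minar2 (r = -0.89) and Zcchc12 (r = -0.88) for Cplx1. Syn1 had another set of neighbours, Atg9a, a scramblase of autophagy vesicles, at r = 0.93, Shank1, a postsynaptic scaffold, at r = 0.90, and Adgrl1, a presynaptic adhesion receptor, at r = 0.89. Libraries share depth and tissue makeup across genes, and these values are a description.

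Of 74 other presynaptic genes listed, 12 could be named, because names came from a table the study ordered by its own test, so the 12 are not a random draw. The synapsins and active zone genes had no named member, and Syt1, Cplx2, Syn2, Vamp1, Vamp2 and Snap25 were not matched. Between saline H3.3Q5A and saline empty rats 4 of the 12 rose and 0 fell, beside 3.23% of all genes upward, with a median of 0.042 beside -0.012 over all genes. Among heroin rats 1 of the 12 fell with H3.3Q5A against H3.3 WT, beside 0.687% of all genes downward. With median centring or 1 residual factor 2 were called there, beside 5.41% and 7.17% of all genes. By limma as reported, 0 of the 12 were called in heroin H3.3Q5A vs. heroin empty rats, beside 3.21% of all genes. The heroin difference called 0 of the 12 in empty, H3.3 WT and H3.3Q5A rats, beside 0.155%, 2.75% and 0.505%. Medians over these 4 comparisons were between -0.089 and 0.088. Up to 3 of the 12 were called in them with median centring or 1 residual factor, beside 3.09% to 9.74% of all genes.

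Of the calcium sensors, Syt3, another synaptotagmin, moved like Syt2 but less. Its mean was 11.61 ± 0.19 (SD, n = 7) in saline empty and 11.96 ± 0.122 (SD, n = 7) in saline H3.3Q5A rats, and it rose by 0.35 (limma adjusted p = 0.0305). Among heroin rats it fell by 0.35 with H3.3Q5A against H3.3 WT (limma adjusted p = 0.0295), and its interactions were -0.58 against empty and -0.43 against H3.3 WT (limma adjusted p = 0.00367 and 0.0399). The other genes in this paragraph were chosen after their values were seen. Syt10, a synaptotagmin of other vesicles, went the opposite way with an interaction of 1.13 against empty (limma adjusted p = 0.0172). Syt4 was called in no comparison and differed by -0.20 in saline H3.3Q5A vs. saline empty rats (limma adjusted p = 0.2).

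Of the genes for fusion, membrane and recycling, Snph, a syntaxin-binding protein that anchors axonal mitochondria, rose by 0.35 in saline H3.3Q5A rats (limma adjusted p = 0.0205). Dnm1, the neuronal dynamin that cuts vesicles from the membrane, rose by 0.25 (limma adjusted p = 0.0446), and Syngr2, a synaptogyrin that is also common outside neurons, by 0.42 (limma adjusted p = 0.0358). These too were chosen after their values were seen. For Snph and Dnm1, all 7 saline H3.3Q5A rats were above every saline empty rat. Interactions against empty were -0.42 for Snph, -0.40 for Dnm1 and -0.35 for Hip1r, an endocytic adaptor (limma adjusted p = 0.0138, 0.00813 and 0.036). In that interaction 4 of the 12 were called downward and 1 upward, beside 7.03% and 6.93% of all genes. Vamp4, Scamp1, Atp6v0c, Atp6v1h and Slc17a8 were called in no comparison.

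**Figure D4:**
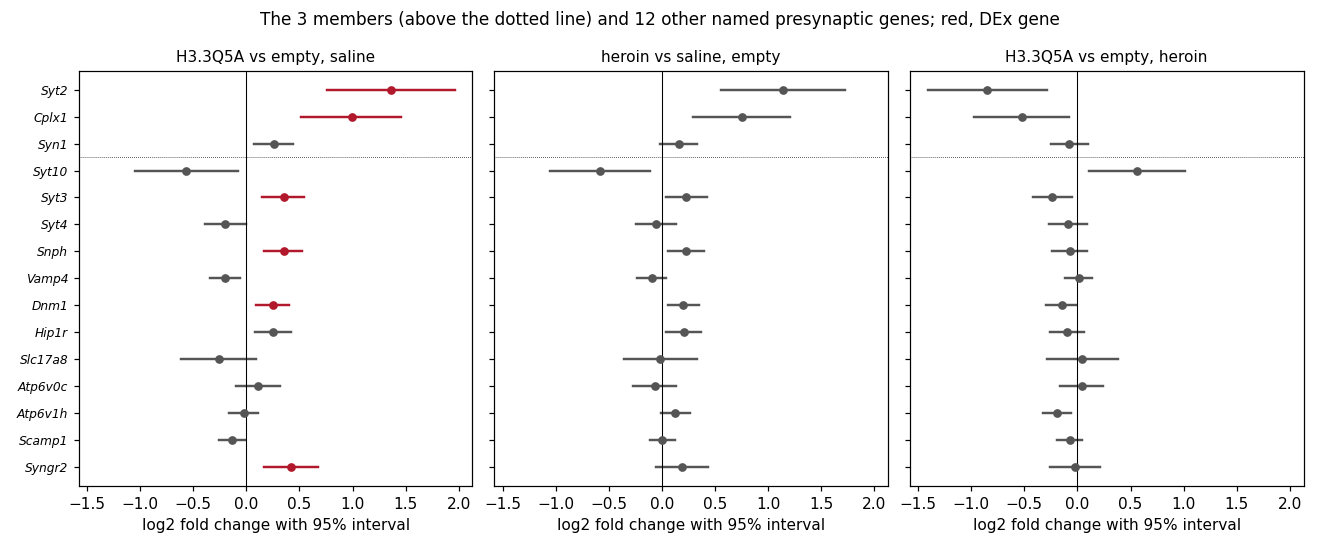
Log2 fold change with 95% interval of the 3 members (above the dotted line) and the 12 other named presynaptic genes in 3 comparisons, red for DEx genes. In saline H3.3Q5A vs. saline empty rats Syt2 (1.36) and Cplx1 (0.99) lie beyond the other red genes, of which Syngr2 is furthest at 0.42.

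Markers of other cell types moved in the same comparisons. They could be named only from the table that the study ordered by its own test. Those named here and in the next paragraph are thus not a random draw. The shares over all genes given beside them are not a test of their counts. Of 14 oligodendrocyte markers, 12 were named and none was at 0 in any library. In saline H3.3Q5A vs. saline empty rats 9 of these rose with a median of 0.67, beside 3.23% of all genes upward. In the interaction against empty 11 fell with a median of -1.07, beside 7.03% downward, and in that against H3.3 WT 8 fell with a median of -0.82, beside 3.19%. All 12 were lower in heroin H3.3Q5A than in heroin empty rats (median -0.42, 0 called, beside 3.21% of genes). They were also lower than in heroin H3.3 WT rats (median -0.59, 2 called, beside 2.71%). With heroin in empty rats all 12 were higher (median 0.48, 0 called, beside 0.155%). Their summed level ranged from 13000 to 28100 CPM in saline empty, from 20500 to 29900 in saline H3.3Q5A, from 14400 to 29700 in heroin empty and from 11200 to 25900 in heroin H3.3Q5A rats. The highest saline empty rat in this sum was rat 18 (others 13000 to 17000), and the highest heroin H3.3 WT rat was rat 11 at 35100 (others 18800 to 25800), the same rats that stood apart for Cplx1.

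Of 14 markers listed for fast-firing and large projection neurons, 2 are reported, Atp2b2 and Hcn2, a pacemaker channel. Both rose in saline H3.3Q5A vs. saline empty rats (median 0.63), beside 3.23% of all genes. Both fell in the interactions of H3.3Q5A with empty (median -0.96) and H3.3 WT (median -0.78), beside 7.03% and 3.19% of genes downward. Both were lower in heroin H3.3Q5A than in heroin empty rats (median -0.32, 1 called, beside 3.21% of genes). They were also lower than in heroin H3.3 WT rats (median -0.52, 2 called, beside 2.71%). With heroin in empty rats both were higher (median 0.43, 1 called, beside 0.155%). Their sum ranged from 510 to 782 in saline empty and from 804 to 985 CPM in saline H3.3Q5A rats. Of 6 meningeal fibroblast markers, 3 were named, and all 3 were higher in heroin H3.3Q5A than in heroin empty and heroin H3.3 WT rats (medians 0.81 and 0.72), beside 2.41% and 2.02% of genes upward. The same 3 fell with heroin in H3.3 WT rats (median -1.01), beside 2.45% downward. Their sum was 28.8 to 237 CPM (median 73.4) in heroin H3.3Q5A, 17.0 to 82.6 in heroin empty and 13.8 to 49.1 in heroin H3.3 WT rats. Among saline rats it was 31.2 to 138 with H3.3 WT, whose median of 106 was the highest of the 6 groups, 33.4 to 88.4 with the empty vector and 19.9 to 57.5 with H3.3Q5A. Of 5 ependymal markers, 4 were named, and 3 rose in the interaction against empty, beside 6.93% of genes. The 2 named of 5 pituitary markers summed to 0.42 to 235 CPM in saline empty, 1.0 to 34.6 in saline H3.3 WT, 0.38 to 18.2 in saline H3.3Q5A, 0.658 to 33.6 in heroin empty, 0.345 to 1.79 in heroin H3.3 WT and 0.54 to 20.6 in heroin H3.3Q5A rats. Of these, 1 was called in 1 comparison, upward in the interaction against H3.3 WT, beside 1071 of 22570 genes upward. Of 8 general neuron markers only 2 were named, of which 1 rose in saline H3.3Q5A vs. saline empty rats (median 0.24), beside 3.23% of genes upward. In each interaction of H3.3Q5A, with empty (median -0.36) and H3.3 WT (median -0.21), 1 fell, beside 7.03% and 3.19% of genes downward. Between heroin H3.3Q5A and heroin H3.3 WT rats 1 fell (median -0.2), beside 0.687% downward.

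Among rats of a group, the deviations of Syt2 had r = 0.82 (rho = 0.71) with the log2 oligodendrocyte sum, 0.86 (rho = 0.82) with the fast-firing sum and -0.72 (rho = -0.61) with the ependymal sum. For Cplx1 r was 0.84, 0.92 and -0.80 (rho 0.73, 0.87 and -0.67). The permutation p for each of these r was 1e-05 and adjusted 3e-05 over 18 relations computed. The fast-firing sum is made of Atp2b2 and Hcn2. On the same values Atp2b2 was already among the named genes most like Syt2 (r = 0.86) and Cplx1 (r = 0.88). The p of the fast-firing sum is thus no independent test of a relation to a cell type. The meningeal sum had r = -0.36 with Syt2 (rho = -0.37, permutation p = 0.018 and 0.014, adjusted 0.041 and 0.032) and r = -0.16 with Cplx1 (rho = -0.21, permutation p = 0.29 and 0.18). Without the 2 rats farthest from the median, the r of Syt2 were 0.77, 0.83, -0.65 and -0.29 in the order oligodendrocyte, fast-firing, ependymal and meningeal, and those of Cplx1 0.81, 0.90, -0.74 and -0.16.
Syn1 had r = 0.04 (rho = 0.07, permutation p = 0.81 and 0.66) with the oligodendrocyte sum and r = 0.46 (rho = 0.46, permutation p = 0.0018 and 0.0021) with the fast-firing sum. The log2 read total had r = -0.02 with Syt2 and 0.04 with Cplx1 (permutation p = 0.89 and 0.81). These relations were chosen after the data were examined, and the part of tissue makeup in the differences of Syt2 and Cplx1 was not tested.

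**Figure D5:**
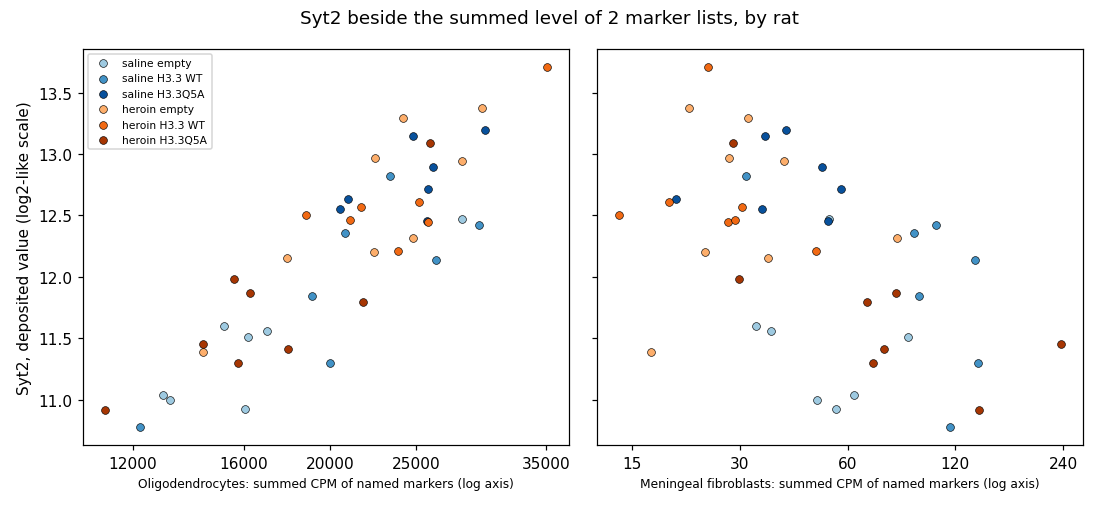
Syt2 (deposited value, log2-like scale) against the summed CPM of the 12 named oligodendrocyte markers (left) and the 3 named meningeal fibroblast markers (right) for 44 rats, on log axes and coloured by group. Syt2 is higher in rats with a higher oligodendrocyte sum, and the highest meningeal sum of any rat, 237, is in the heroin H3.3Q5A group.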

How the data were processed

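RNA was sequenced from VTA punches of 44 labelled rats. Another saline library, titled H3.3Q5A but with H3.3 WT as its treatment, was left out of the groups. Per the labels and methods, the authors joined reads of 2 flow cells, aligned them with HISAT2 (2.1.0) to rn6 (Rnor_6.0), counted genes with featureCounts (2.0.1) and normalized with DESeq2 (2.11.40.6, the version in the submitters' processing notes). They deposited variance-stabilized counts, a log2-like measure, for 32883 genes in 45 libraries. The authors accounted for technical variation with RUVr before testing, with no number of factors given in the sources used here. Undoing the transformation gave whole reads (within 0.05, for values under 2000 reads) for 100.0% of values, so the read totals and CPM were computed from them. Their number limits precision for genes with few reads.

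Values were fitted in R 4.3.3 with limma 3.58.1 (intensity trend), as 6 group means, on the 22570 genes with reads in 7 or more libraries. A DEx gene passed 0.05 after Benjamini-Hochberg adjustment over all of these with a log2 difference over 0.2 in size, and all 12 comparisons used the same fit. Correlations used 100000 two-sided permutations in SciPy 1.17.1. Intervals are 95% intervals from the limma fit. Scripts were tested on simulated data. The members, gene lists and tests were chosen with earlier results of these data known. Named genes were the members, presynaptic genes called in a comparison of heroin or of H3.3Q5A in heroin rats, and the nearest neighbours of each member. Other listed presynaptic genes and the cell type markers were named outside that rule, after their values were seen. Names and rn6 coordinates came from the 1998 readable rows of the study's gene table, whose own test results were not used. No pair of libraries in a group was a duplicate (lowest chi-square per gene 11.7 in 140 pairs). Promoter sequences came from RefSeq (GRCr8) and were found by symbol for 3 of 3 members. Rats are separate animals, so p-values measure the spread between animals. Results for some listed genes are not reported here.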

Additional observations from a re-analysis of the deposited data

Results flagged for a closer look

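In heroin H3.3 WT rats, rat 11 stood apart from the 6 others for Syt2, at 13.7 against 12.2 to 12.6, and for Cplx1, at 15.6 against 14.4 to 14.9. In saline empty rats, rat 18 stood apart for Cplx1, at 14.9 against 13.5 to 14.1. These are gaps beyond Dixon's critical value, in 3 of 18 groups of values tested, where chance gives about 0.9. Rat 11 was flagged for both Syt2 and Cplx1, which vary together, so its flags are not independent of each other. The difference between heroin and saline rats changed with the vector by -2.21 for Syt2 and -1.51 for Cplx1 when H3.3Q5A was set against empty, and by -1.77 for Syt2 and -1.02 for Cplx1 when it was set against H3.3 WT, each by the interaction term of the limma fit.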

How the results depend on the processing

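Of 36 results (3 genes in 12 comparisons), the call of Syt2 for H3.3Q5A vs. empty in saline rats held under all 15 alternatives. It also held in all 44 fits that left out a rat. So did the calls of Syt2 and Cplx1 for the drug-by-vector interaction of H3.3Q5A with empty. The call of Syt2 for the interaction with H3.3 WT held likewise (limma adjusted p 0.000587 to 0.0131 without a rat). Several results near the threshold did not hold their side of it. All values below are limma adjusted p unless a log2 fold change is named, and where a direction or side changed the cause was not tested.

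The heroin difference in empty rats passed for Syt2 and Cplx1 with median centring (0.033 and 0.0442), array weights (0.00249 and 0.00675), 1 residual factor (0.000102 and 0.000379), 3 residual factors (1.17e-09 and 3.05e-07) and, added after the data were examined, without saline empty rat 18 and heroin H3.3 WT rat 11 (0.00742 and 0.0112). In H3.3Q5A rats it passed for both with median centring (0.0302 and 0.0377), array weights (0.00608 and 0.0106), 1 residual factor (0.000419 and 0.000651), 3 residual factors (2.52e-09 and 2.38e-07), only the groups compared (0.0389 and 0.0466), the conflicting library counted by its title (0.036 and 0.0472) and without those 2 rats (0.0303 and 0.0412). Over all genes tested, the heroin difference in empty rats called 35 as reported (0.155%), 780 with median centring (3.46%), 1984 with array weights (8.79%), 1633 with 1 residual factor (7.24%), 2322 with 3 (10.3%) and 1339 without those 2 rats (5.93%), and in H3.3Q5A rats 114 as reported (0.505%) and 977, 1561, 1528, 2412 and 572 in that order, 447 with only the groups compared and 384 with the library by its title. At an FDR of 0.1 the calls gained were the heroin difference in empty rats (0.053 and 0.0802) and in H3.3Q5A rats (0.0533 and 0.0685), Syt2 in heroin H3.3Q5A rats against empty (0.0678) and H3.3 WT (0.0648), Cplx1 against H3.3 WT (0.0929), and Syn1 in saline H3.3Q5A vs. empty rats (0.0746) and in the interaction against empty (0.0621).

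Syt2 in heroin H3.3Q5A rats passed against empty and H3.3 WT with median centring (0.0272 and 0.0412), array weights (0.0109 and 0.0154), 1 residual factor (0.0018 and 0.00154) and 3 residual factors (1.35e-07 and 4.06e-08), and against empty without those 2 rats (0.0429). Cplx1 passed against empty and H3.3 WT with array weights (0.0448 and 0.0311), 1 residual factor (0.00928 and 0.00205) and 3 residual factors (5.99e-05 and 2.05e-06). With 1 and 3 residual factors Syt2 also passed for heroin in H3.3 WT rats (0.0292 and 2.26e-05) and for saline H3.3Q5A vs. H3.3 WT (0.0284 and 2.35e-06), and Cplx1 for saline H3.3 WT vs. empty (0.0316 and 1.79e-05). With 3 factors alone, saline H3.3 WT vs. empty passed for Syt2 (0.00136) and Syn1 (1.82e-05), and saline H3.3Q5A vs. H3.3 WT for Cplx1 (0.0175). Over all genes, heroin H3.3Q5A vs. empty called 724 as reported and 2199 with median centring, 1570 with array weights, 1837 with 1 factor and 2388 with 3, and vs. H3.3 WT 611 and 1222, 1256, 1618 and 2190 in that order. These factors are taken from the residuals themselves, so by construction they lower the residual spread. With only the groups compared, heroin H3.3Q5A rats had 101 genes called vs. empty and 0 vs. H3.3 WT. The log2 read total as covariate gave 299 and 411, rat number as covariate 283 and 570, and no gene filter 437 and 344. Voom gave 526 and 679, and leaving out those 2 rats 896 and 204. Syn1 passed for saline H3.3Q5A vs. empty and for the interaction against empty with median centring (0.0437 and 0.00814), 1 residual factor (0.0465 and 0.0468), 3 residual factors (8.68e-06 and 1.26e-05) and only the groups compared (0.0454 and 0.0254), and for the interaction with rat number as covariate (0.0326).

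The interaction of Cplx1 against H3.3 WT was lost with no gene filter (0.083), quantile normalization (0.0602), rat number as covariate (0.0536), the conflicting library counted by its treatment (0.0746) and, added later, the log2 read total as covariate (0.0583) or without those 2 rats (0.0683). Small differences changed sign. The heroin difference of Syn1 in H3.3 WT rats had a log2 fold change of -0.031 with quantile normalization (0.883), -0.017 with array weights (0.942), -0.0063 with voom (0.987), -0.0075 with the log2 read total (0.982) and -0.0011 without those 2 rats (1.0). Syn1 in saline H3.3Q5A vs. H3.3 WT rats was at 0.056 with median centring (0.797) and 0.024 with the library by its treatment (0.958). Syt2 in heroin H3.3 WT vs. empty rats was at -0.11 without those 2 rats (0.973). The r of Syt2 and Syn1 was -0.02 without the 2 farthest rats. Of the 12 other presynaptic genes, median centring called 3 for heroin H3.3Q5A vs. empty and 2 each for heroin in empty and in H3.3Q5A rats (0 as reported), and 2 for heroin H3.3Q5A vs. H3.3 WT and 5 for the interaction against H3.3 WT (1 as reported). With 1 residual factor these were 1, 2, 2 and 2 for the first 4, and 7 for saline H3.3Q5A vs. empty (4 as reported), 3 for saline H3.3 WT vs. empty and 1 for the H3.3 WT interaction (both 0). Of all genes, median centring called 9.74%, 3.46%, 4.33%, 5.41% and 16.2% in the order given. With 1 residual factor the shares of all genes were 8.14%, 7.24%, 6.77% and 7.17% for the first 4. They were 10.3%, 1.42% and 0.0975% for the last 3.

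Leaving out each rat in turn gave, for Syt2, 0.0122 to 0.165 (heroin, empty), 0.00901 to 0.154 (heroin, H3.3Q5A), 0.011 to 0.185 (heroin H3.3Q5A vs. empty), 0.00966 to 0.216 (heroin H3.3Q5A vs. H3.3 WT), 0.879 to 1.0 (heroin H3.3 WT vs. empty) and 0.00286 to 0.0419 (saline H3.3Q5A vs. empty). For Cplx1 the ranges in that order were 0.0158 to 0.19, 0.0155 to 0.185, 0.0429 to 0.374, 0.0213 to 0.269, 0.745 to 1.0 and 0.00295 to 0.0542, and 0.0119 to 0.0991 for the interaction against H3.3 WT. For Syn1 they were 0.774 to 1.0 (heroin, H3.3 WT), 0.845 to 0.998 (saline H3.3Q5A vs. H3.3 WT) and 0.0427 to 0.116 (interaction against empty). No paired analysis was possible because each rat had 1 drug, 1 vector and 1 library. Depth was not the limit for these genes, which had at least 1270 reads in every library, and the spread between rats was.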

Other observations

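The saline library whose title and treatment labels disagree had deposited values of 13.14 for Syt2, 15.17 for Cplx1 and 14.19 for Syn1.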
